A study of Mus musculus with 2 samples.

Results

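Layer 6 corticothalamic (L6 CT) neurons are described here as the 85 nuclei that carry the label L6 CT CTX in the deposited table of nuclei, out of 2580 nuclei kept as neurons and 8171 nuclei in all. The male library holds 41 of them and the female library 44. The study sorted GFP+ nuclei from the ipsilateral cerebral cortex of mice with a mild traumatic brain injury (mTBI), 7 days post-injury (dpi), and sequenced their RNA on the 10X Genomics droplet platform. Animals were Atf3-CreER::Sun1-sfGFP mice above 7 weeks of age with 1 wild-type allele at each locus, and each library pooled 4 of them. Both libraries come from injured mice, so every comparison below is between neuron classes after injury, and uninjured cortex is not analysed here. The Cre recombinase is made where Atf3, an injury-induced transcription factor, is transcribed, and it acts only once tamoxifen is given, here at 4 and 5 dpi. The reporter then places GFP on the nuclear envelope for good. A neuron that never switched on Atf3 in that window, or that died before collection, would therefore not carry the label.

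L6 CT neurons are the glutamatergic cells of the deepest cortical layer that send their axons to the thalamus, with branches in the thalamic reticular nucleus and in the layers above. They give the cortex a feedback line onto its own sensory relay. Foxp2, a forkhead transcription factor, and Sulf1, an extracellular enzyme that trims sulfate groups from heparan sulfate, mark these cells among cortical excitatory classes. The class nearest in function is the layer 5 pyramidal tract (L5 PT) neuron, whose thick axon leaves the cortex for the brainstem and spinal cord, and it was the first comparison class. The intratelencephalic (IT) neurons of layers 2 to 6, which connect cortical areas with each other, joined it in the second comparison.

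UMIs, the counts of single RNA molecules, were summed over the nuclei of a class in each library. The male L6 CT sum held 209330 UMIs and the female sum 445617, and a nucleus had a median of 4473 and 10343.5 UMIs. L5 PT had 352 and 290 nuclei, with 1632726 and 3457660 UMIs. L6 CT made up 2.98% of neurons in the male library (exact 95% binomial interval 2.14 to 4.01) and 3.66% in the female library (2.67 to 4.88), and these intervals, which cover counting error only, overlap. No barcode of an L6 CT nucleus was shared between the libraries. A public field gives the sex of the library titled F7dpi as male, while its title, the table and 643 Xist UMIs against 1 Y-linked UMI in its L6 CT nuclei put it as female. Free RNA was estimated at 17.0% of the male and 37.9% of the female L6 CT UMIs, and the 11 microglial markers summed to 435 and 1014 CPM (UMIs scaled to 1 total for every sum, male library first here and below) in L6 CT, 584 and 874 CPM in L5 PT and 7154 and 6962 CPM in microglia. Of the microglial markers, Ctss was at 0 in the male L6 CT sum and C1qa and Trem2 were at 0 in the female one. The microglial genes thus differed more between libraries than between L6 CT and L5 PT, and their part in the results was not tested.

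The label was first set against marker genes. Foxp2 (ENSMUSG00000029563) stood at 358 and 287 CPM in the L6 CT sums, against 18.4 and 21.4 CPM in L5 PT. In L5 IT, the excitatory class next in order, it averaged 32.7 ± 28.1 CPM (SD, n = 2), and the 5 other excitatory classes all lay below both L6 CT libraries. Sulf1 (ENSMUSG00000016918) stood at 134 and 60.6 CPM in L6 CT, against 3.06 and 1.45 CPM in L5 PT. L6 IT came next in Sulf1, at 32.1 ± 2.81 CPM (n = 2). Of the 27 female Sulf1 UMIs 20 sat in a single nucleus, and without them the female level would be 15.7 CPM, below the 34.1 CPM of L6 IT and the 23.6 CPM of L2/3 IT in that library. Foxp2 was highest in L6 CT in both libraries, at 311 and 251 CPM even without its top nucleus, whereas for Sulf1 the female rank rests on 1 nucleus.

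Among the listed markers, the largest separation came from Hs3st4 (ENSMUSG00000078591), a heparan sulfate sulfotransferase, at 2647 and 2421 CPM in L6 CT against 19.0 and 26.9 CPM in L5 PT. It was seen in 40 of 41 male and 44 of 44 female L6 CT nuclei. After each nucleus was thinned to 2300 UMIs, leaving out 6 male nuclei below that depth, 94.3% and 97.7% of L6 CT nuclei still had an Hs3st4 UMI, against 4.1% and 7.83% of L5 PT nuclei. Microglia, which should lack the gene, gave 4.12% and 8.58% at that depth, so the L5 PT shares are at the level of background. Foxp2 was sparser per nucleus, with a UMI in 23 of 41 and 27 of 44 L6 CT nuclei, or 48.6% and 38.6% after thinning, against 2.06% and 2.31% of microglia. Foxp2 and Sulf1 were both without a UMI in 17 male and 16 female L6 CT nuclei, whose label therefore rests on other genes.

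Of the 13 listed L6 CT markers 11 were tested, and 9 were higher in L6 CT in each comparison introduced below. Over all genes tested, 6.37% and 3.6% were higher. The marker counts are a description, since such genes shaped the labels. With estimated free RNA subtracted, 6 markers were higher than in L5 PT, and the calls of Zfpm2, Garnl3 and Cpa6 were lost. Syt6, a synaptotagmin, stood at 745 and 891 CPM in L6 CT against 81.5 and 105 CPM in L5 PT, although L2/3 IT also reached 407 ± 65.2 CPM (n = 2). Tle4, a transcriptional co-repressor, stood at 277 and 337 CPM against 52.7 and 44.8 CPM. The zinc finger cofactor Zfpm2 stood at 917 and 615 CPM against 154 and 114 CPM. Thsd7b, at 220 and 69.6 CPM against 7.35 and 6.65 CPM, and Cpa6, a carboxypeptidase at 52.5 and 13.5 CPM against 1.22 and 1.74 CPM, were lower in the female L6 CT sum than in the male one. Ntsr1, the neurotensin receptor whose gene drives a widely used corticothalamic Cre line, had 0 UMIs in both L6 CT sums, and Rprm had 1 and 0. Crym, a thyroid hormone-binding protein, stood at 47.8 and 40.4 CPM against 59.4 and 59.6 CPM in L5 PT, and Sla, an adaptor protein, at 14.3 and 4.49 CPM against 4.29 and 5.21 CPM, and neither was called. Of the 13 markers, 12 were detected in the male and 11 in the female L6 CT sum, and together they summed to 6358 and 5370 CPM, against 847 and 787 CPM in L5 PT. Claustral markers summed to 9.55 and 8.98 CPM and vascular leptomeningeal markers to 0 in both L6 CT sums. The L6b markers summed to 47.8 and 2.24 CPM, against 26.3 and 19.1 CPM in L5 PT, with Ctgf, Cplx3 and Nxph4 at 0 and with Svil and Moxd1 at 33.4 and 14.3 CPM in the male sum. L5 NP markers summed to 115 and 202 CPM, against 288 and 270 CPM in L5 PT, and IT markers to 387 and 377 CPM, against 553 and 468 CPM.

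**Figure D1:**
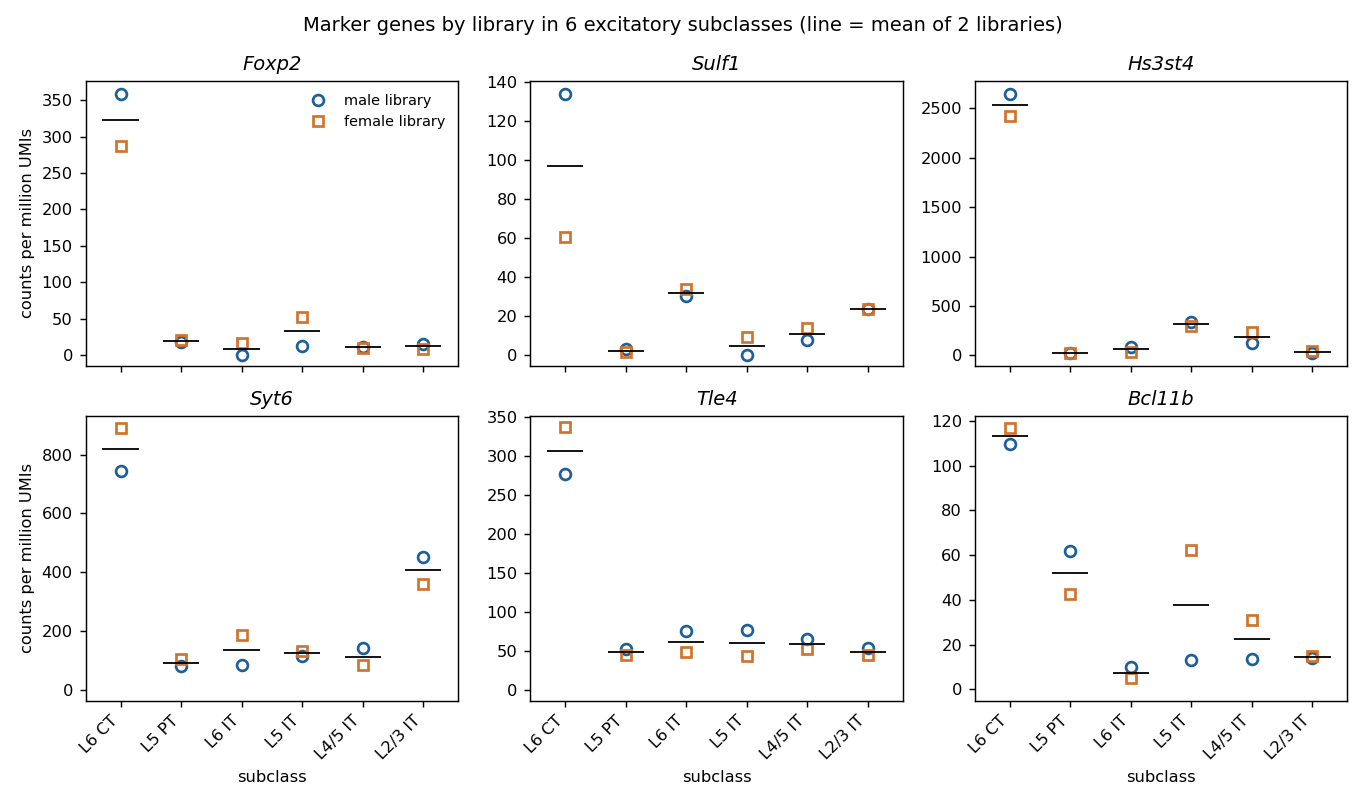
Level of 6 marker genes (CPM, linear axes from 0) in the 6 excitatory classes, with the male library as circles, the female library as squares and the mean of both as a line. Foxp2, Hs3st4, Syt6 and Tle4 are highest in L6 CT in both libraries, the female Sulf1 point rests on 1 nucleus with 20 of its 27 UMIs, and Bcl11b, at 110 and 117 CPM in L6 CT, lies above its 61.9 and 42.5 CPM in L5 PT.

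The L6 CT nuclei did not form a cluster of their own. The authors' cluster 12 held 73 of the 85, and of its 156 nuclei 46 carried the label L4/5 IT. Within that cluster, L6 CT and L4/5 IT nuclei still differed in Syt6, at 767 and 914 CPM against 20.5 and 17.3 CPM, and in Foxp2, at 363 and 290 CPM against 10.2 and 26.0 CPM. Rorb, a layer 4 transcription factor, ran the other way, at 0 and 4.76 CPM in the L6 CT nuclei against 456 and 442 CPM in the L4/5 IT nuclei. Over all nuclei rather than neurons alone, the table's labels kept 78 of the 85 as L6 CT and gave 3 as L6 IT, 2 as microglia and macrophages, 1 as L5 PT and 1 as L6b. The labels came from mapping these same counts onto an atlas, so the classes are in part defined by the genes compared next. The p-values below rank differences between labelled classes and are not independent evidence for the labels.

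Hs3st4 lies on chromosome 7 (123982869 to 124398989, plus strand, GRCm38, GENCODE vM21). The promoter of this gene, 250 bases before to 50 bases after the RefSeq start (GRCm38.p6, chr7:123982578-123982877, plus strand), is shown because no other gene named here rose as far above L5 PT. The promoters of the class markers Syt6 (the third of 3 listed starts, chr3:103575876-103576175, plus strand) and Tle4 (the first of 2 listed starts, chr19:14598134-14598433, minus strand) are set beside it. Capitals mark an AP-1 motif.
Hs3st4: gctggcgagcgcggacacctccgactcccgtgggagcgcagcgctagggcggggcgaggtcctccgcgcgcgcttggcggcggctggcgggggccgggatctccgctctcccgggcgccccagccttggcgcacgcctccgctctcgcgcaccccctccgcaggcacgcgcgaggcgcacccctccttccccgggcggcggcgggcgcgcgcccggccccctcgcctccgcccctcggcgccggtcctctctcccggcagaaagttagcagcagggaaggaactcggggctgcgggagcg
Syt6: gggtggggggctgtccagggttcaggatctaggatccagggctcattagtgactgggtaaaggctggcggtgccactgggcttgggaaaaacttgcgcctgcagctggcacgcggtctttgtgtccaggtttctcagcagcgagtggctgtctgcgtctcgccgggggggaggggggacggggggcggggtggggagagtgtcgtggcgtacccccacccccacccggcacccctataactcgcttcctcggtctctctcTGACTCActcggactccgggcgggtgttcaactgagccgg
Tle4: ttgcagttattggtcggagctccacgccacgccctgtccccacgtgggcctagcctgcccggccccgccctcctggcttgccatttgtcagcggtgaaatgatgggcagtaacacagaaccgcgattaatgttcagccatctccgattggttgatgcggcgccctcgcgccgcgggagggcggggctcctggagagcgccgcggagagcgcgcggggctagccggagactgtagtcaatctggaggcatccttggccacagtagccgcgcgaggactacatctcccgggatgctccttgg
These windows hold 79.3%, 65.7% and 65.0% G and C, against a median of 52.7% over the promoters of all genes. A search on both strands for a forkhead motif (TGTTTAC), an AP-1 motif (TGANTCA) and a cyclic AMP response element (TGACGTCA) found none in the Hs3st4 and Tle4 windows shown and an AP-1 match in that of Syt6, while the windows of the other 2 Syt6 starts and of the other Tle4 start held none. Among the promoters of the 297 genes higher in L6 CT than in the mean of the other excitatory classes, of which 222 were in the table, 1.35% held the forkhead motif, 3.6% the AP-1 motif and 2.25% the response element. Over all genes tested, the shares were 2.46%, 4.41% and 3.54%. A match is a description of the letters in a window and not a site.

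Against L5 PT, L6 CT neurons stood out by large rises in single genes such as Hs3st4, Sulf1 and Cdh18, and by genes that L5 PT expressed and of which L6 CT had no UMI. Of 8255 genes tested, 1116 (13.5%) passed an adjusted p of 0.05 (quasi-likelihood test of edgeR, adjusted by the Benjamini-Hochberg method), 526 (6.37%) higher and 590 (7.15%) lower in L6 CT. Against the unweighted mean of L2/3 IT, L4/5 IT, L5 IT, L5 PT and L6 IT, 592 (7.17%) passed, 297 (3.6%) higher and 295 (3.57%) lower. Within each library alone, 1111 of the 1116 and 592 of the 592 had the sign of the fit. The same 2 libraries made the fit and the calls, so this agreement is a description and no replication. The comparisons share the L6 CT and L5 PT sums and are not independent of each other. The counts fell to 349 and 221 when estimated free RNA was subtracted, and without the male L6 CT sum they were 624 and 339, without the female L6 CT sum 630 and 315, and without the female L5 PT sum 717 against L5 PT. Of the genes named here by rule, 96 were called against L5 PT and 75 against the mean of the others, and 47 and 36 of these calls were lost with free RNA subtracted.

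**Figure D2:**
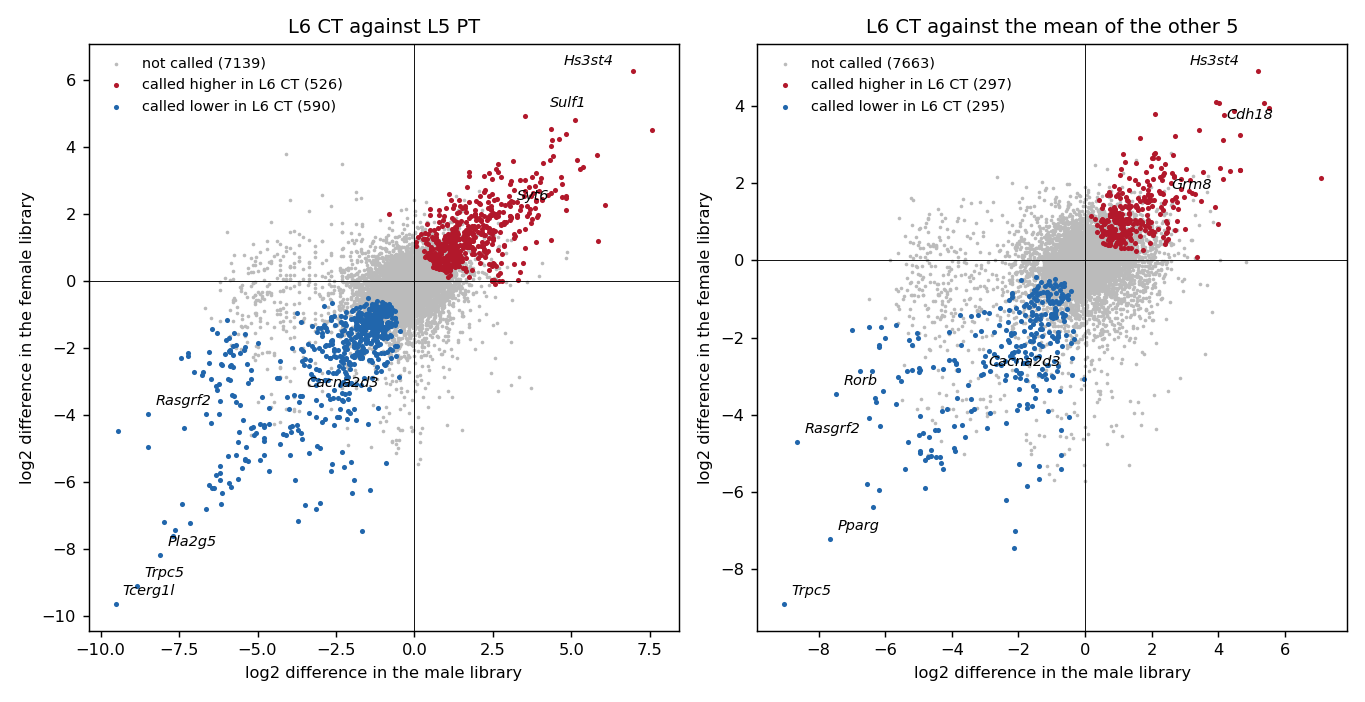
Log2 difference of each of the 8255 genes in the male library (x axis) and the female library (y axis), for L6 CT against L5 PT (left) and against the mean of the other 5 excitatory classes (right), with genes called by the fit in red (higher in L6 CT) and blue (lower). Hs3st4 is at the upper right and Trpc5 at the lower left in both panels. Of the 1116 called genes on the left, 1111 lie on the same side of 0 in both libraries, which also made the calls.

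Among the genes higher in L6 CT, Hs3st4 rose by a log2 fold change of 6.68 ± 0.39 (SE) against L5 PT (adjusted p = 3.55e-11) and of 5.05 ± 0.21 against the mean of the others (adjusted p = 1.06e-14). Cdh18, a cadherin of cell to cell contacts, stood at 1801 and 1364 CPM in L6 CT against 79.0 and 51.5 CPM in L5 PT, a log2 fold change of 4.58 ± 0.30 (adjusted p = 1.73e-10). Both genes therefore lay far above L5 PT in each library, with no overlap between the classes.

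Further genes were called higher than in L5 PT, and of these Adamts16, St6gal2 and Gfra2 stood at 3.76 CPM or less there. Adamts16, a secreted metalloprotease, stood at 23.9 and 40.4 CPM against 0.612 and 1.74 CPM. St6gal2, a sialyltransferase, stood at 129 and 38.1 CPM against 3.67 and 1.16 CPM. Gfra2, the co-receptor for neurturin, stood at 66.9 and 65.1 CPM against 0.612 and 3.76 CPM, a log2 fold change of 4.50 ± 0.57 (adjusted p = 4.46e-06). Dkk3, a secreted protein of the Dickkopf family, and Ncald, the calcium sensor neurocalcin delta, were higher by log2 fold changes of 4.68 ± 0.54 and 4.48 ± 0.29. Car10, a carbonic anhydrase-related protein, was called higher against L5 PT, at 674 and 388 CPM in L6 CT against 28.2 and 25.2 CPM. Its plain mean over the other classes was 694 and 539 CPM, above L6 CT in both libraries. The fit averages those classes on the log scale, which gave a log2 fold change of 0.67 ± 0.28 (adjusted p = 0.172, and 0.0436 with free RNA subtracted). The 2 kinds of mean thus put Car10 on opposite sides of L6 CT.

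Against the mean of the other excitatory classes, the largest rise among the named genes was that of Hcrtr2, a receptor for the arousal peptide orexin, at 33.4 and 18.0 CPM in L6 CT against 0.476 and 1.25 CPM. Its log2 fold change was 5.41 (adjusted p = 0.000821), on few UMIs. Foxp2 was higher by 4.24 ± 0.27 and Cdh18 by 4.07 ± 0.18 on the log2 scale. Trabd2b, a membrane metalloprotease that acts on Wnt proteins, rose by 4.05 ± 0.67, and Spon1, a secreted matrix protein, by 3.64 ± 0.30. Igsf21, a synaptic adhesion protein, stood at 143 and 44.9 CPM against 8.14 and 14.4 CPM. Glra2, a glycine receptor subunit, stood at 43.0 and 11.2 CPM against 2.24 and 3.15 CPM, and its call was lost without the male L6 CT sum (adjusted p = 0.228).

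On the lower side, the named genes with the largest changes had no UMI at all in the 85 nuclei. Of the 590 genes called lower than in L5 PT, 42 were at 0 in both L6 CT sums, as were 29 of the 295 called lower than in the mean of the others. A total of 0 UMIs allows a level of up to 4.58 CPM over both libraries, taking 3 counts as the limit. Trpc5, a calcium-permeable cation channel, was at 0 and 0 CPM in L6 CT against 213 and 251 CPM in L5 PT and 268 and 242 CPM in the mean of the others, at least 50.6-fold and 55.7-fold lower (adjusted p = 1.27e-08 and 3.24e-09). Tcerg1l, an elongation regulator-like gene, was at 0 in both against 339 and 368 CPM in L5 PT, at least 77.2-fold lower. Pparg, a nuclear receptor of lipid metabolism, was at 0 in both against 120 and 91.2 CPM in the mean of the others, at least 23.1-fold lower. These genes were thus plainly expressed in other injured excitatory neurons of the same libraries and not detected in L6 CT at this depth.

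The same held against L5 PT for Pla2g5, a secreted phospholipase (at least 28.2-fold lower), Piezo2, a mechanosensitive channel (at least 20.2-fold), and Doc2b, a calcium sensor of vesicle release (at least 18.6-fold). Ifit1, an interferon-induced antiviral gene, was at 0 and 0 CPM against 116 and 66.5 CPM in L5 PT (adjusted p = 0.000122). Rsad2, another interferon-induced gene, was at 0 and 0 CPM against 39.8 and 33.0 CPM (adjusted p = 0.00855). Its call was lost without the female L6 CT sum and with free RNA subtracted. Against the mean of the others, Tmem40, Bicc1, Clec18a, Itgb3, Dnase1l3, Igsf3 and Ddx60 were also at 0 in L6 CT, with lower bounds on the fold difference from 4.47 to 8.67. All but Tmem40 lost that call without the female L6 CT sum and with free RNA subtracted, and Dnase1l3, Igsf3 and Ddx60 also without the male L6 CT sum (adjusted p = 0.0848, 0.0679 and 0.0969).

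Transcription factors of layer identity separated L6 CT on both sides. Of the 27 listed, 22 were tested, and against the mean of the others 10 were higher and 2 lower, where 7.17% of all genes were called. Against L5 PT, 8 were higher and 1 lower, where 13.5% of all genes were called. With free RNA subtracted, the counts were 6 and 1, and 3 and 1. The medians over the list were 0.81 and 0.91 on the log2 scale, against 0.02 and -0.01 over all genes tested. Without the male L6 CT sum, 5 were higher and 1 lower than in L5 PT, and with the library as a block 11 and 1. Tle4 was higher by 2.53 ± 0.19 and Zfpm2 by 2.36 ± 0.32 against the mean of the others. The Zfpm2 call was lost with free RNA subtracted (adjusted p = 0.133), while that of Tle4 held in every alternative run. Tbr1, a T-box factor of deep-layer and corticothalamic fate, stood at 33.4 and 15.7 CPM against 3.06 and 2.31 CPM in L5 PT (adjusted p = 0.00749), a call lost without the male L6 CT sum (adjusted p = 0.121) or the female L5 PT sum (adjusted p = 0.0589). Rorb and Cux2, factors of layer 4 and of the upper layers, had log2 fold changes of -4.14 ± 0.54 and -3.01 ± 0.80 against the mean of the others. Cux2 lost its call without either L6 CT sum and with free RNA subtracted, while Rorb kept it in every alternative run. The call of Tbr1 against L5 PT was also lost with free RNA subtracted (adjusted p = 0.14).

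The markers of L5 PT were low in L6 CT with 1 exception. Of the 10 listed, 6 were tested, and 5 were lower and 1 higher in L6 CT than in L5 PT. Over all genes tested, 7.15% were lower and 6.37% higher. Vat1l stood at 0 and 2.24 CPM, a log2 fold change of -5.22 ± 0.92 (adjusted p = 0.00025), and Stac was at 0 in both against 78.4 and 45.7 CPM, at least 13.5-fold lower. Parm1 stood at 0 and 6.73 CPM against 33.7 and 75.8 CPM. Bcl6 and Slco2a1 were lower too, and both lost their call without either L6 CT sum or without the female L5 PT sum. With free RNA subtracted, 0 were higher and 1 lower. Bcl11b, which encodes the zinc finger factor CTIP2 of subcerebral projection neurons, was the exception, at 110 and 117 CPM in L6 CT against 61.9 and 42.5 CPM in L5 PT, a log2 fold change of 1.12 ± 0.31 (adjusted p = 0.0145). That call was lost without the male L6 CT sum (adjusted p = 0.0514), the female L6 CT sum (0.241) or the female L5 PT sum (0.135), whereas against the mean of the others, where Bcl11b was higher by 2.33 ± 0.29 (adjusted p = 6.1e-06), it held in every alternative run.

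Guidance receptors and cadherins differed in both directions. Of 34 axon guidance genes 31 were tested, and 5 were higher and 7 lower than in L5 PT, where 13.5% of all genes were called. In the comparison with the mean of the others, 7 were higher and 6 lower, where 7.17% of all genes were called. Without the male L6 CT sum 3 were higher and 7 lower than in L5 PT, without the female L6 CT sum 4 and 4, without the female L5 PT sum 3 and 7, and with free RNA subtracted 2 and 3. Ephb1, a receptor tyrosine kinase for ephrins, stood at 736 and 969 CPM in L6 CT, 274 and 279 CPM in L5 PT and 94.7 and 111 CPM in the mean of the others. It was higher by 3.35 ± 0.19 on the log2 scale than in that mean (adjusted p = 4.72e-12). Its relative Epha6 ran the other way, at 90.8 and 31.4 CPM in L6 CT against 595 and 486 CPM in L5 PT. The netrin receptor gene Unc5c stood at 28.7 and 24.7 CPM against 317 and 240 CPM in L5 PT, and the ligand gene Ntn1 at 4.78 and 2.24 CPM against 57.0 and 64.2 CPM. Ntn1 lost its call without the female L6 CT sum and with free RNA subtracted, and against the mean of the others it did not pass (adjusted p = 0.191). Slit1, a repulsive ligand, and Sema5a, a transmembrane semaphorin, were higher than in L5 PT by 3.25 ± 0.40 and 3.54 ± 0.40.

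Of 20 cadherins and protocadherins, 18 were tested, and 7 were higher and 3 lower than in L5 PT. Against the mean of the others, 5 were higher and 2 lower. These made 55.6% and 38.9% of the tested list, where 13.5% and 7.17% of all genes were called. Cdh9 and Pcdh10 rose beside Cdh18, at 57.3 and 29.2 CPM against 7.35 and 2.6 CPM in L5 PT and at 71.7 and 69.6 CPM against 12.2 and 6.07 CPM. Cdh4 stood at 14.3 and 15.7 CPM in L6 CT against 130 and 97.2 CPM in L5 PT. Cdh8 stood at 43.0 and 20.2 CPM against 159 and 150 CPM. Cdh13 fell by 2.23 ± 0.36 on the log2 scale against L5 PT (adjusted p = 9.52e-05, and 0.104 with free RNA subtracted), but its difference from the mean of the others was -0.12 ± 0.33. With free RNA subtracted, 4 cadherins and protocadherins were higher and 2 lower than in L5 PT.

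**Figure D3:**
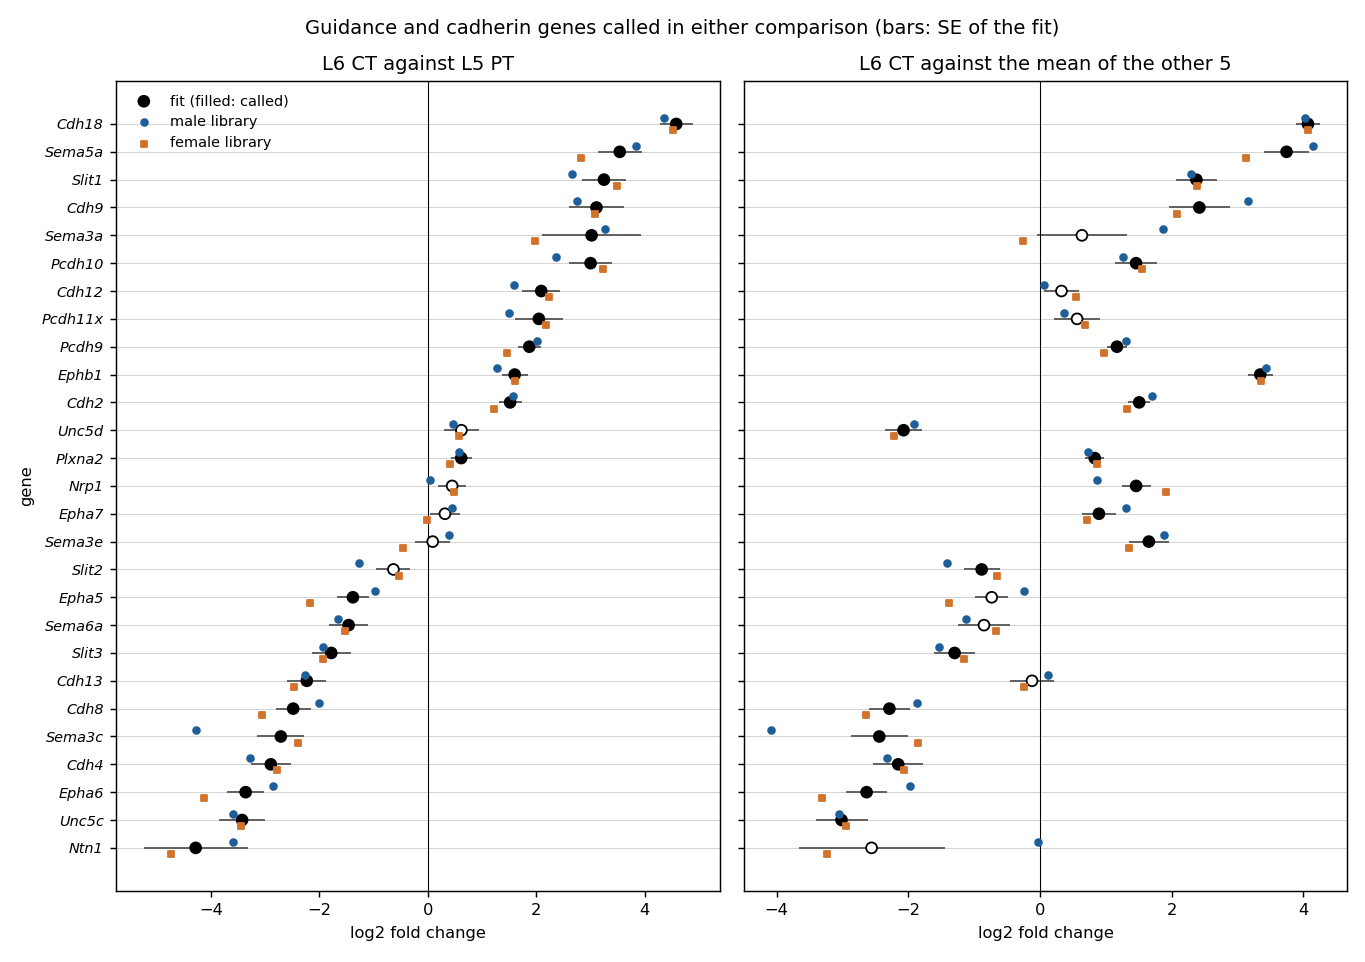
Log2 fold change of the guidance and cadherin genes called in either comparison, with black points for the fit (filled where called), bars for its SE, blue circles for the male and orange squares for the female library. Cdh18, Sema5a and Slit1 lie right of 0 and Unc5c, Epha6 and Cdh4 left of it in both panels and both libraries.

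Ion channel genes differed from L5 PT in both directions. Of 32 potassium and HCN channel genes 30 were tested, with 8 higher and 4 lower than in L5 PT. Against the mean of the others, 3 were higher and 5 lower. These made 40.0% and 26.7% of the tested list, where 13.5% and 7.17% of all genes were called. The median over the list was 0.46 against L5 PT and -0.01 against the mean of the others. The counts against L5 PT were 5 and 5 without the male L6 CT sum, 7 and 1 without the female L6 CT sum, 5 and 2 without the male L5 PT sum, 5 and 1 with free RNA subtracted, and 11 and 7 with the library as a block. Kcnk2, which encodes the two-pore leak channel TREK-1, stood at 172 and 126 CPM in L6 CT against 7.35 and 8.68 CPM in L5 PT, higher by 4.07 ± 0.35 (adjusted p = 1.42e-08). Kcnt2, a sodium-activated potassium channel, stood at 148 and 108 CPM against 21.4 and 23.4 CPM. Kcnc1, a fast delayed rectifier of the Kv3 family, stood at 57.3 and 69.6 CPM against 14.7 and 15.6 CPM. Kcnt2 and Kcnc1 differed from the mean of the others by 0.61 ± 0.26 and 0.41 ± 0.27 and were not called, so their contrast was with L5 PT. Kcnn3, a calcium-activated SK channel, stood at 19.1 and 2.24 CPM in L6 CT against 49.0 and 46.6 CPM in L5 PT, and lost its call without the female L6 CT sum and with free RNA subtracted.

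Of 25 voltage-gated sodium and calcium channel genes, 21 were tested, with 4 higher and 2 lower than in L5 PT, where 6.37% and 7.15% of all genes were called. Cacna2d3, the auxiliary calcium channel subunit alpha2delta-3, was the largest of these differences, at 76.4 and 85.3 CPM in L6 CT against 880 and 814 CPM in L5 PT and 708 and 671 CPM in the mean of the others. Its log2 fold changes were -3.40 ± 0.29 and -3.01 ± 0.26 (adjusted p = 1.27e-08 and 1.56e-08). Scn2a, an axonal sodium channel, stood at 425 and 292 CPM against 186 and 177 CPM in L5 PT. Its call there was lost without the male L6 CT sum or the male L5 PT sum. With free RNA subtracted, 0 of the list were higher and 1 lower than in L5 PT, and the counts were 1 and 2 without the male L6 CT sum, 2 and 1 without the female L6 CT sum, 0 and 2 without the male L5 PT sum, 2 and 2 without the filter on low counts, and 7 and 2 with the library as a block.

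Of 32 glutamate and GABA receptor genes, 31 were tested, with 6 higher and 1 lower in each comparison, where 13.5% and 7.17% of all genes were called in either direction. Against L5 PT, 3 were higher and 0 lower with free RNA subtracted, 4 and 0 without the male L6 CT sum, and 8 and 2 with the library as a block. Grm8, a presynaptic metabotropic glutamate receptor, stood at 898 and 666 CPM in L6 CT against 200 and 161 CPM in L5 PT and 223 and 155 CPM in the mean of the others. Gria4 and Grm3 were higher than in L5 PT by 3.32 ± 0.39 and 3.87 ± 0.41, with male values above female ones, at 306 and 117 CPM and at 253 and 69.6 CPM. Grik3, a kainate receptor subunit, did not pass against L5 PT, at 416 and 447 against 348 and 429 CPM, but was higher than the mean of the others by 1.71 ± 0.21 (adjusted p = 2.94e-06).

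**Figure D4:**
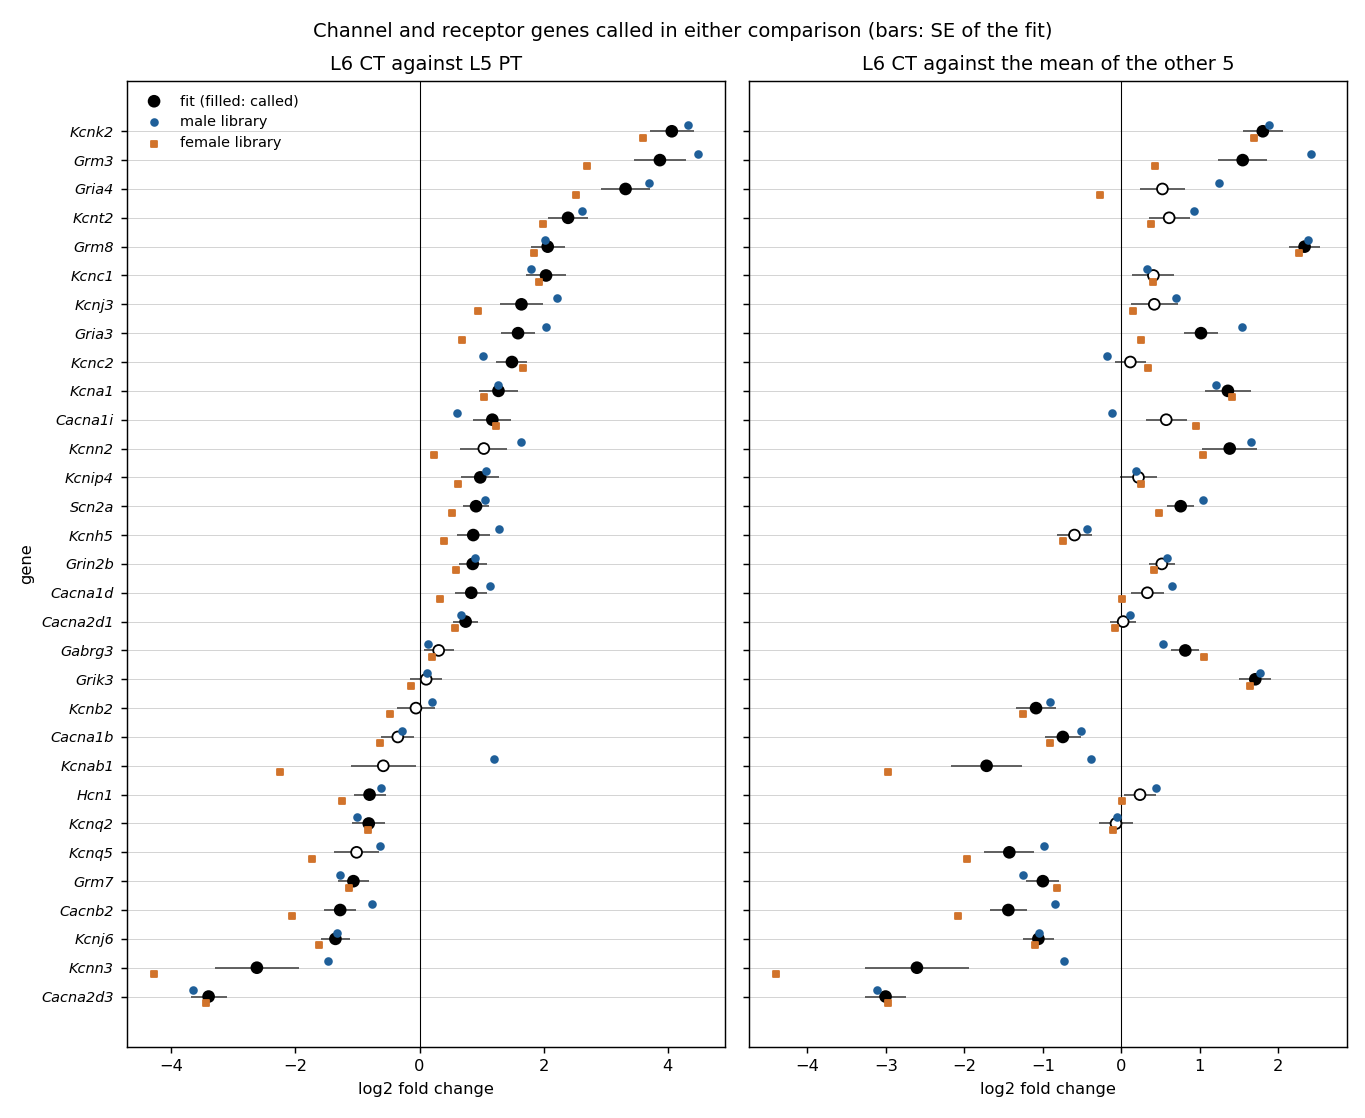
Log2 fold change of channel and receptor genes called in either comparison, drawn as in the plot of guidance genes (filled points called, bars SE, blue circles male, orange squares female). Kcnk2 and Grm8 are called higher and Cacna2d3 is called lower in both panels.

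Of the injury genes shown by the study, 35.3% were called between L6 CT and L5 PT, against 13.5% of all genes tested, and 11 were not called. The panel of 17 injury genes was chosen by the study on these samples and is no independent evidence of direction. All 17 were tested, and against L5 PT 1 was higher and 5 were lower, where 6.37% and 7.15% of all genes were. The mean of the others gave 2 higher and 2 lower (23.5% called), where 7.17% of all genes were called. The medians were -0.48 and -0.27 on the log2 scale, against -0.01 and 0.02 over all genes. Without the male L6 CT sum 1 was higher and 3 lower than in L5 PT, without the female L6 CT sum 0 and 4, without the male L5 PT sum 1 and 3, with free RNA subtracted 0 and 2, and with the library as a block 1 and 7. For the mean of the others, 1 was higher and 1 lower without the male L6 CT sum, and 0 and 1 without the female one.

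Atf3 itself, the gene that drives the reporter, was uneven. It stood at 14.3 and 117 CPM in the L6 CT sums, against 65.5 and 98.9 CPM in L5 PT. In nuclei, 3 of 41 male and 16 of 44 female L6 CT nuclei had an Atf3 UMI, and 22 of the 52 female UMIs sat in 1 nucleus. After thinning, the shares were 5.71% and 20.5%, against 5.15% and 6.16% in microglia and 11.6% and 17.8% in L5 PT. Microglia are no measure of background for this gene, since all nuclei were sorted on a reporter that Atf3 drives. Outside cluster 12, 5 of 5 female and 0 of 7 male L6 CT nuclei had an Atf3 UMI. The libraries thus differ in Atf3 within L6 CT, and with 1 library of each sex this could not be tested. Atf3 differed from L5 PT by -0.13 ± 0.42 over both libraries (adjusted p = 0.907) and by -2.68 when the female L6 CT sum was left out (adjusted p = 0.0349).

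Ecel1, a membrane endopeptidase induced in damaged neurons, stood at 115 and 283 CPM in L6 CT against 330 and 418 CPM in L5 PT. Of the L6 CT nuclei, 16 of 41 and 35 of 44 had an Ecel1 UMI, or 7 of 35 and 16 of 44 after thinning, against 57.1% and 60.9% of L5 PT nuclei and 5.15% and 4.74% of microglia. The sums differed by -0.87 ± 0.40 (adjusted p = 0.171). With the library as a block Ecel1 passed at -0.93 (adjusted p = 0.00146), and without the low-count filter at -0.99 (adjusted p = 0.00448). Without the female L6 CT sum the difference was -1.85. Ern1, a sensor of the unfolded protein response, likewise passed against L5 PT with that block (adjusted p = 0.0198) and without that filter (adjusted p = 0.0374). Sox11, a transcription factor of growth and regeneration, stood at 215 and 321 CPM against 366 and 333 CPM and did not pass in either comparison.

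Ddit3, Bbc3 and Stat3 were called lower than in L5 PT, but each call depended on single sums. Ddit3, which encodes the stress factor CHOP, stood at 81.2 and 69.6 CPM in L6 CT against 270 and 154 CPM in L5 PT. Its log2 fold change was -1.52 ± 0.42 (adjusted p = 0.0159), a call lost without the male L6 CT sum (0.0653), the female L6 CT sum (0.15) or the male L5 PT sum (0.0914), or with free RNA subtracted (0.137). After thinning, 11.4% and 18.2% of L6 CT nuclei had a Ddit3 UMI, against 41.4% and 31.7% of L5 PT nuclei and 9.79% and 6.69% of microglia. Bbc3, the p53 target PUMA, stood at 14.3 and 6.73 CPM against 78.4 and 25.5 CPM (adjusted p = 0.0436), and lost its call without either L6 CT sum (0.103 and 0.381) and without the male L5 PT sum (0.257). Stat3, a cytokine-activated factor, fell by 1.14 ± 0.33 on the log2 scale (adjusted p = 0.0214), which was lost without the female L6 CT sum (0.413) or the female L5 PT sum (0.126).

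The clearest falls in the panel were those of Sprr1a and Rest. Sprr1a, a small proline-rich protein of regenerating axons, stood at 14.3 and 6.73 CPM in L6 CT against 117 and 74.0 CPM in L5 PT, a log2 fold change of -3.34 ± 0.48 (adjusted p = 2.67e-05). It had a UMI in 3 of 41 and 3 of 44 L6 CT nuclei, and after thinning in 0% and 2.27%, against 1.03% and 1.78% of microglia. Of L5 PT nuclei, 23.1% and 14.9% had an Sprr1a UMI at that depth. Rest, a repressor of neuronal genes, stood at 0 and 15.7 CPM against 79.6 and 69.7 CPM, a log2 fold change of -2.83 ± 0.49 (adjusted p = 0.000222). Both calls against L5 PT held in every alternative run. Against the mean of the others, Sprr1a had a log2 fold change of -2.67 ± 0.49, lost without the female L6 CT sum (adjusted p = 0.12), and Rest one of -2.20 ± 0.49, lost without the male L6 CT sum (adjusted p = 0.0917).

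On the other side, Creb5, a CREB-family transcription factor, stood at 167 and 139 CPM in L6 CT against 69.8 and 69.7 CPM in L5 PT. It was higher by 1.07 ± 0.25 against L5 PT (adjusted p = 0.00483) and also passed against the mean of the others (adjusted p = 0.00447). The first call was lost without the female L6 CT sum (0.0572), the second without either L6 CT sum (0.0608 and 0.087), and both with free RNA subtracted. Ret, the signalling receptor for GDNF-family ligands, stood at 119 and 222 CPM in L6 CT against 122 and 178 CPM in L5 PT and 67.8 and 81.9 CPM in the mean of the others. It was higher than that mean by 1.37 ± 0.28 (adjusted p = 0.00175), a call lost without the female L6 CT sum (0.527). Nmnat2, Jun, Oxsr1, Htt, Eif2ak3, Atf3 and Sox11 were not called in either comparison, with log2 fold changes against L5 PT from -0.48 for Jun to 0.29 for Eif2ak3. Jun passed when L6 CT nuclei outside cluster 12 were left out (-1.40 against L5 PT, adjusted p = 0.0346), and Nmnat2 passed against L5 PT in DESeq2 (adjusted p = 0.0458).

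**Figure D5:**
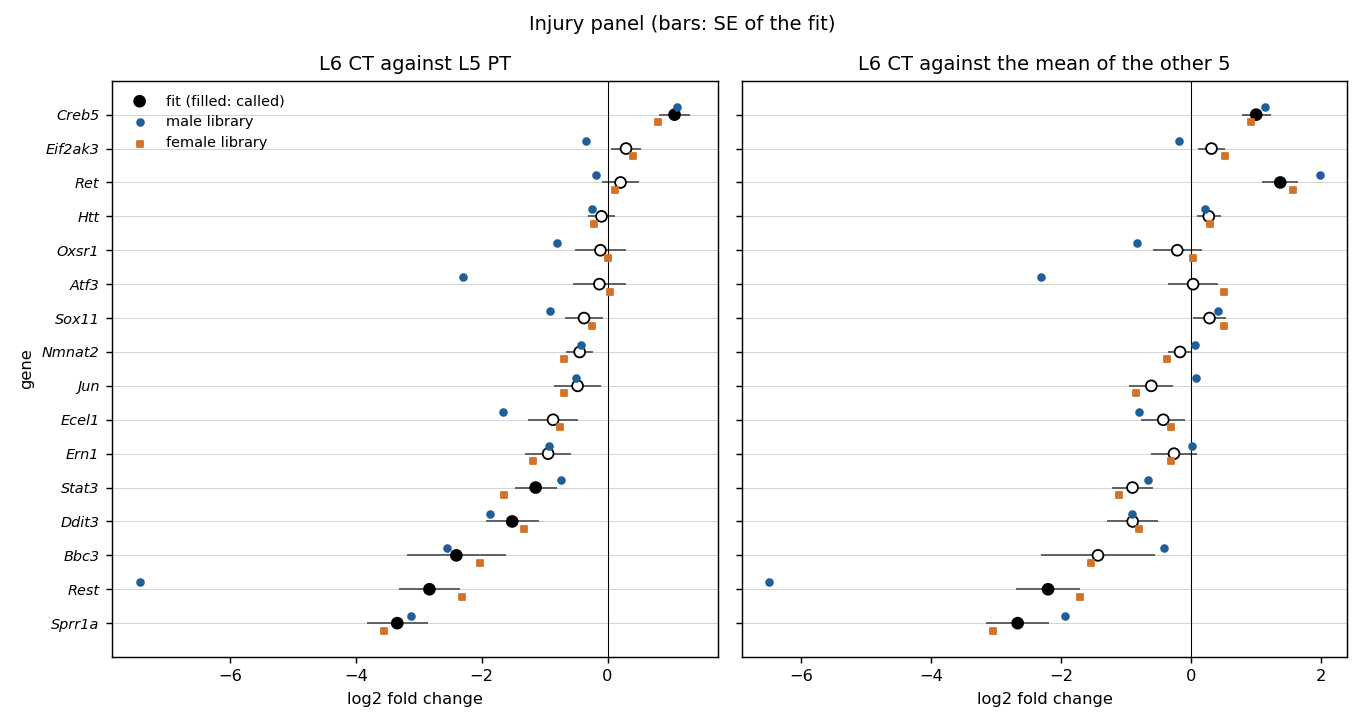
Log2 fold change of injury panel genes in L6 CT, against L5 PT (left) and the mean of the other 5 excitatory classes (right), with black points for the fit (filled where called), bars for its SE, blue circles for the male and orange squares for the female library. Creb5 is right of 0 and Sprr1a and Rest are left of 0 in both panels, while the male point of Atf3 lies far from the female one.

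In 5 wider lists of injury biology, 12.5% to 27.8% of the tested genes were called against L5 PT, where 13.5% of all genes were. Of 22 regeneration-associated genes 18 were tested, and 0 were higher and 5 lower than in L5 PT, where 6.37% and 7.15% of all genes were called in those directions. Without either L5 PT sum 3 were lower, with free RNA subtracted 1 was, and with the library as a block 7 were. Gap43, a growth cone protein, stood at 248 and 222 CPM against 682 and 645 CPM in L5 PT (adjusted p = 0.00231, and 0.0659 with free RNA subtracted), and against the mean of the others it passed with the library as a block (adjusted p = 0.0533 without and 0.00474 with it). Cd44, a hyaluronan receptor, and Vgf, a neuropeptide precursor, had log2 fold changes of -0.71 ± 0.21 and -0.77 ± 0.26 and were called lower too, beside Sprr1a and Stat3. The call of Cd44 was lost without the female L6 CT sum or the male L5 PT sum, and that of Vgf without any 1 of the 4 sums. Of 15 tested genes of DLK, JNK and SARM1 signalling, 2 were higher and 0 lower than in L5 PT, or 13.3%, namely Map2k4 and Mapk10, both kinases of the JNK pathway. Map2k4 lost that call without any 1 of the 4 sums, and Mapk10 without the male L6 CT sum or either L5 PT sum.

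Of 16 tested genes of the integrated stress and unfolded protein response, 0 were higher and 2 lower than in L5 PT (12.5% called, against 13.5% of all genes), Ddit3 and Creb3l2, a membrane-bound stress factor. Neither passed without the male or the female L6 CT sum, or without the male L5 PT sum. Asns, asparagine synthetase, was the sole member called against the mean of the others, higher by 1.35 ± 0.37 (adjusted p = 0.0227), a call lost without either L6 CT sum (0.0956 and 0.304), and against L5 PT it passed with the library as a block (adjusted p = 0.0113). Of 13 tested p53 and BCL2 family genes, 1 was higher and 2 lower than in L5 PT (23.1% called), and none passed with free RNA subtracted. Mdm2, the ubiquitin ligase that restrains p53, stood at 177 and 114 CPM in L6 CT against 389 and 287 CPM in L5 PT. The anti-apoptotic Bcl2 stood at 57.3 and 38.1 CPM against 15.9 and 15.6 CPM. Mdm2 lost its call without the female L6 CT sum (adjusted p = 0.0875) and Bcl2 without any 1 of the 4 sums. Of 12 tested AP-1 and activity-dependent genes (16.7% called), 1 was higher, the synaptic pentraxin Nptx2, and 1 lower, the neurotrophin Bdnf. Nptx2 lost its call without any 1 of the 4 sums and Bdnf without the female L6 CT sum. With the library as a block 1 was higher and 2 lower than in L5 PT. Against the mean of the others 0 of 12 passed, while Bdnf passed there with the library as a block (adjusted p = 0.0415).

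Markers of other cell types gave these values. None of the 7 tested microglial markers was called in either comparison. The inhibitory markers Gad1 and Gad2 were at 0 in the male and at 2.24 and 4.49 CPM in the female L6 CT sum. Adarb2, which marks some interneurons, was the sole inhibitory-list gene called, at 139 and 38.1 CPM against 15.3 and 6.36 CPM. From the striatal list Meis2, a homeobox factor, was higher than in L5 PT (1.31 ± 0.32), a call lost without the male L6 CT sum or the female L5 PT sum, with Drd2 and Adora2a at 0 in both L6 CT sums. Pde10a, a phosphodiesterase of that list, stood at 745 and 346 CPM in L6 CT and Rgs9 at 33.4 and 18.0 CPM, and the list summed to 1013 and 534 CPM, against 401 and 420 CPM in L5 PT. Among pan-excitatory genes, Slc17a7, the vesicular glutamate transporter, stood at 76.4 and 31.4 CPM against 34.3 and 13.9 CPM in L5 PT and did not pass (adjusted p = 0.276), while Neurod6 was at 0 in both L6 CT sums. Of 3 claustral markers, the 2 tested, Gnb4 and Synpr, were lower in L6 CT than in L5 PT, and neither passed without the female L6 CT sum. Rasgrf2, listed as an IT gene, stood at 0 and 8.98 CPM against 165 and 130 CPM. In the comparison with the mean of the others, Rasgrf2 fell by 5.26 ± 0.46 on the log2 scale.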

How the data were processed

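Single nucleus RNA-sequencing data were analysed from 2 libraries of GFP+ nuclei. Raw UMI counts came from CellRanger, which the authors ran against GRCm38 including introns and the reporter transgene, and were deposited as such. The submitters' processing notes name version 3.1.0, while the headers of the filtered matrices name later releases. The deposited table of nuclei, made by the authors in Seurat, gives the percent of mitochondrial UMIs, clusters and predicted labels from mapping to an atlas. A deposited matrix of SCTransform-corrected values, a score, was used only to check its totals. 1 column of the table was not used. Doublet removal by a caller is not given in the sources used here, and none was run.

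UMIs were summed per library for the 10 neuronal subclasses with at least 20 nuclei (L2/3 IT CTX-1 and CTX-2 joined), and all 20 sums were fitted together in R 4.3.3 with edgeR 4.0.16 (TMM, filterByExpr, quasi-likelihood test, Benjamini-Hochberg adjustment, threshold 0.05), on a pipeline tested on simulated data. SE is the absolute log2 fold change over the square root of F. A library alone gives log2 ratios of CPM with 0.5 CPM added and no test. CPM in the text scale UMIs by the plain total of the sum. For the mean of the others, CPM and bounds use the plain mean over the classes. Log2 fold changes against that mean average the classes on the log scale. Shares have exact (Clopper-Pearson) 95% intervals. Free RNA was estimated from barcodes with at most 10 UMIs. The libraries are separate pools of animals, 1 of each sex. The fit pools the spread between these 2 libraries over all 10 subclasses and treats their sums as independent, though they share the pools. The p-values therefore do not measure a spread between animals for L6 CT alone.

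Same-numbered sums share their animals, and the library differences of L6 CT correlated with those of the 9 other subclasses at 0.0289 to 0.206. The fit reported has no block, and the blocked fit is given where it changes a call or moves a list's count against L5 PT by over 1.5 times. Named genes were, per comparison and direction, the 12 with the largest log2 fold change among those called with the same sign in both libraries and at least 20 CPM in the higher class (symbols of predicted or clone genes left out), up to 6 called members of each list, the injury panel, and the markers of L6 CT and L5 PT. The nuclei, lists and rules were chosen with earlier results of these data known. Promoters are from RefSeq. Python 3.11.15, numpy 2.4.6, scipy 1.17.1, pandas 2.3.3 and matplotlib 3.10.9 were used. A few members of the lists are counted in list totals but not reported here by name.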

Additional observations from a re-analysis of the deposited data

Results flagged for a closer look

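Kcnab1, a potassium channel beta subunit, went in opposite directions in the libraries against L5 PT, with a log2 difference of 1.19 among male and of -2.24 among female sums. For Atf3 the same was seen against the mean of the other excitatory classes, with -2.31 among male and 0.51 among female sums. With 1 library of each sex, neither difference between the libraries was tested.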

How the results depend on the processing

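With DESeq2, without the low-count filter or with the excitatory sums alone, the counts of called genes over all genes stayed within 1.5 times their values. They also did so with L2/3 IT split, within the limits of the methods, or with the L6 CT nuclei alone limited to cluster 12. The same held with the library as a replicate block (1538 genes against L5 PT and 800 against the mean of the others). It held too without excitatory nuclei with a Gad1, Gad2 or Cx3cr1 UMI (an alternative chosen after seeing the data). Single calls and list counts did move: against L5 PT, Bbc3, Bcl6, Vgf and Slco2a1 were lost in DESeq2, and Nptx2, Map2k4, Mapk10, Vgf, Garnl3 and Cacna1d without the filter, where DLK, JNK and SARM1 genes went from 2 higher to 0. AP-1 genes went from 1 lower to 3 with the L6 CT nuclei limited to cluster 12. Ecel1 and Ern1 gained a call against L5 PT without the filter. No named call changed sign. With the block, 1116 of the 1116 and 591 of the 592 calls were kept. Subtracting free RNA cut the counts to 349 against L5 PT (164 higher, 185 lower) and 221 against the mean of the others (123 higher, 98 lower), with 47 of 96 and 36 of 75 named calls lost, and the cause was not tested. Leaving out 1 sum gave 624 to 809 calls against L5 PT (279 to 353 higher, 279 to 456 lower) and 315 to 566 against the mean of the others (158 to 298 higher, 114 to 281 lower), with fewer samples by construction. In these fits the lone sum is assumed to vary like the others. The share of neurons labelled L6 CT was 2.98% to 3.66% with 1 library left out. Leaving out a whole library leaves no spread, so its fold changes have no test. The planned removal of nuclei with 2 or more microglial UMIs could not be run, since it left 0 female L6 CT nuclei. Depth limits the genes at 0 to bounds, and 85 nuclei limit what low genes can show.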
